A study of Mus musculus with 53 samples.

Results

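Loss of *Nnat* without obesity was examined in the paraventricular nucleus (PVN) of the hypothalamus of chow-fed male mice. Non-obese *Nnat*+/-p mice were compared with wild-type mice on the same diet. The comparison rests on 6 of the 53 libraries of the series, chosen by their labels: 3 from wild-type mice (replicates 13, 14 and 15) and 3 from *Nnat*+/-p mice with a labelled weight under 35 g (replicates 18, 19 and 22). *Nnat*+/-p mice are heterozygotes that received the null allele from their father. The allele is a constitutive null on C57BL/6, with a lacZ cassette in place of exons 2 and 3, so *Nnat* was lost in every tissue and from the start of development, not in the PVN alone. All mice were adults of 13 to 14 weeks on chow, and the wild-type mice carried no allele or treatment of their own. The wild-type mice weighed 33.5, 31.4 and 32.45 g and the non-obese *Nnat*+/-p mice 33.6, 34.3 and 27.4 g, so the weights of the groups overlapped. The non-obese group was defined by weight, and its label says nothing of the weight such mice would reach later. Another 4 libraries from obese *Nnat*+/-p males of 38.8 to 46.5 g (replicates 16, 17, 20 and 21) shared the fit, where they add to the estimate of the spread. Each library came from the laser-captured PVN of 1 mouse, with its glia and vessels, and held 2268021 to 6139659 counted reads in the 6 libraries compared.

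Neuronatin, the product of *Nnat*, is a small membrane protein of the endoplasmic reticulum (ER) of neurons and endocrine cells. The gene is imprinted and is read from the paternal copy, so a null allele inherited from the father leaves almost no product. The protein has been linked to the signal peptidase complex, which cleaves the leader of secreted prohormones, and to ER calcium. The PVN holds the neurons that make vasopressin (*Avp*), oxytocin (*Oxt*), corticotropin-releasing hormone (*Crh*) and thyrotropin-releasing hormone (*Trh*). It also holds the melanocortin-responsive neurons that restrain feeding.

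The labelled tissue was first checked against 11 markers of PVN neurons, among them *Sim1*, the transcription factor that specifies them. Levels are given in CPM, the count of a gene relative to the total of its library, scaled by TMM factors. Summed over the list, the level was 2054 CPM in wild-type replicate 13, 1869 in replicate 14 and 294.6 in replicate 15. It was 2170 CPM in non-obese replicate 18, 951.6 in replicate 19 and 1864 in replicate 22. Replicate 15 went against its label. Its *Avp* level was 0.18 CPM against 351 and 265 in the other wild-type libraries, its *Oxt* level was 0.55 CPM against 748 and 655, and its *Sim1* level was 0.55 CPM against 137 and 94.3. None of the 11 markers was at 0 counts in replicate 15, but *Avp* had 1 count there, *Oxt* 3 and *Sim1* 3.

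Markers of neighbouring nuclei were high in the same library. The 8 markers of the ventromedial hypothalamus (VMH) summed to 651.2 CPM in replicate 15, against 175.3 and 218.3 CPM in the other wild-type libraries and 207.3 to 225.9 CPM in non-obese *Nnat*+/-p. *Nr5a1*, which marks VMH neurons, stood at 62.6 CPM in replicate 15 and at 0 to 8.00 CPM in the other 5 libraries. The 9 markers of the arcuate nucleus (ARC) summed to 301.8 CPM in replicate 15, against 45.6 to 106.8 CPM in the other 5, and *Pomc*, the melanocortin precursor, stood at 111 CPM against 0.77 to 13.0 CPM. The wild-type library labelled ARC with the same labelled weight of 32.45 g, replicate 35, held 271324 counts. In CPM without the TMM factor, *Avp* was at 203 and *Sim1* at 40.5, and *Nr5a1*, *Agrp* and *Pomc* were at 0. The other ARC libraries of chow-fed wild-type mice held *Avp* at 0 and 0.81. Both libraries were kept under their labels, and values without replicate 15 stand beside those with it for the differences described below. Non-obese replicate 19 also differed from its group, with thalamus markers at 634.8 CPM against 182.0 to 331.6 CPM in the other 5 libraries, led by *Tcf7l2* at 125 CPM.

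**Figure D1:**
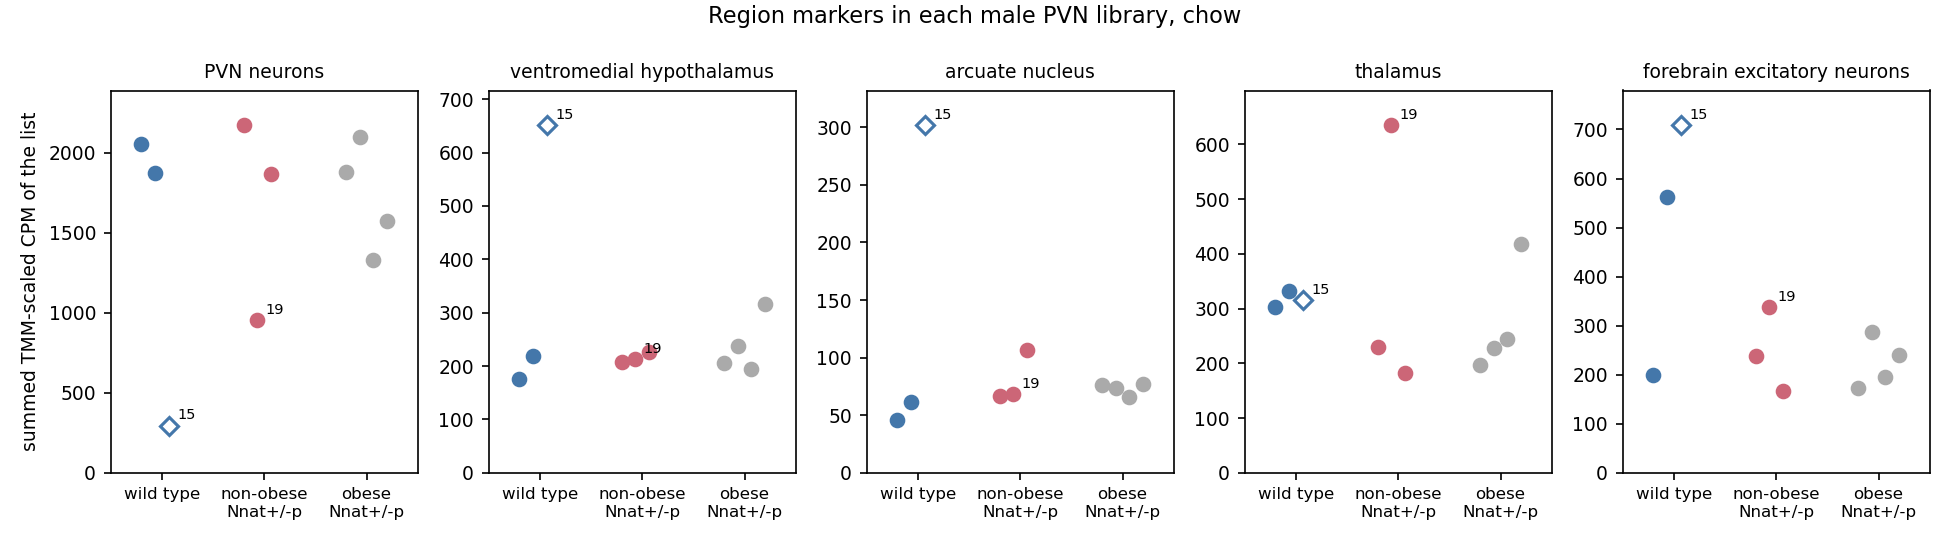
Summed level of each marker list (y axis, TMM-scaled CPM, from 0) in each chow-fed male PVN library, by group, with 1 point per mouse; the open diamond is replicate 15. PVN markers are at 294.6 CPM in replicate 15 and at 951.6 to 2170 CPM in the other 5 libraries compared, while VMH and ARC markers are highest in replicate 15.

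*Nnat* was almost lost in the PVN of every non-obese *Nnat*+/-p mouse. Its level was 380, 467 and 368 CPM in wild-type replicates 13, 14 and 15, and 2.69, 5.05 and 4.67 CPM in non-obese replicates 18, 19 and 22. These are 1473 to 2160 counts against 12 to 23 counts, and the groups were far apart. The log2 fold change was -6.64 (SE 0.49, adjusted p = 9.12e-09, edgeR quasi-likelihood test) and -6.69 (SE 0.47, adjusted p = 6.63e-12) without replicate 15. An exact two-sided permutation test of the 6 libraries gave p = 0.10, the smallest p that 3 against 3 allows. The genotype labels thus held in all 6 libraries, replicate 15 included. The obese *Nnat*+/-p libraries stood at 7.26 ± 5.89 CPM (SD, n = 4), and the difference between obese and non-obese did not pass the test (0.77, SE 0.45, adjusted p = 1.00, edgeR).

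In the GENCODE annotation of GRCm38, *Nnat* spans 157560078 to 157562522 of chromosome 2 and is read from the plus strand. The deposited counts are per gene, so the 12 to 23 counts left in *Nnat*+/-p mice cannot be placed on an exon or on the maternal or paternal copy.

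*Blcap*, the gene on the minus strand that spans *Nnat* (chromosome 2, 157556362 to 157571274), did not pass the test. Its level was 77.9, 105 and 67.6 CPM in wild type and 147, 43.8 and 76.9 CPM in non-obese *Nnat*+/-p, where the lowest and the highest of the 6 values both lie. The log2 fold change was 0.10, with a 95% interval from -0.57 to 0.77, and it was -0.02 (SE 0.35) without replicate 15. Reads of *Nnat* and *Blcap* can be told apart only if the strand was used in counting, which is not given in the sources used here.

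**Figure D2:**
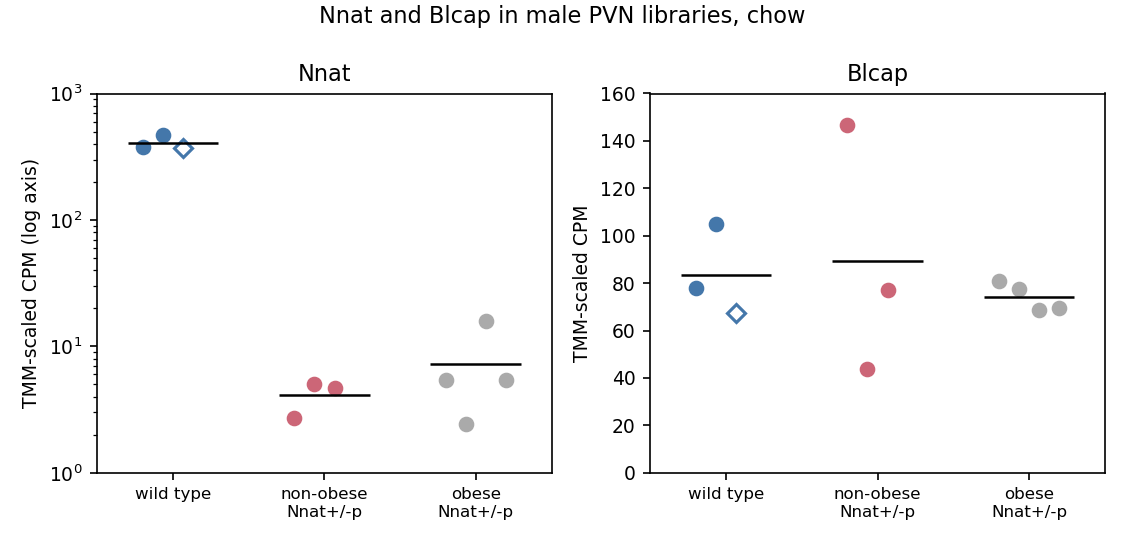
Level of *Nnat* (left, logarithmic axis) and *Blcap* (right, linear axis from 0) in TMM-scaled CPM, 1 point per mouse, with the group mean as a bar; the open diamond is wild-type replicate 15. *Nnat* is at 368 to 467 CPM in wild type and at 2.69 to 5.05 CPM in non-obese *Nnat*+/-p, and the *Blcap* values of the groups overlap.

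Of the 11 genes listed around *Nnat*, 10 were tested and none was called at the threshold of the study, an adjusted p under 0.25, which 0.0128% of all genes tested passed. At an unadjusted p under 0.05 the list held 1 lower gene, where 1.26% of all genes were lower, *Tti1*, a partner of the PI3K-related kinases such as mTOR, 468 kb from the start of *Nnat*. *Tti1* stood at 16.0, 19.9 and 14.2 CPM in wild type and at 3.52, 3.79 and 9.94 CPM in non-obese *Nnat*+/-p. All 3 *Nnat*+/-p values lay below all 3 wild-type values, as for 3.44% of all genes tested (log2 fold change -1.51, SE 0.56, unadjusted p = 0.0124; -1.60 without replicate 15). In the obese *Nnat*+/-p libraries *Tti1* was at 16.1 ± 5.21 CPM (SD, n = 4), close to the wild-type mean of 16.7 CPM.

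The list of imprinted genes held 48, among them *Trim28*, which the study describes as a chromatin regulator upstream of an imprinted network. Of the 48, 44 were tested and *Nnat*, the deleted gene, was the one called. For 4 of the 44, *Nnat* included, all 3 non-obese values lay below all 3 wild-type values, beside 3.44% of all genes tested. For 0 of the 44 they lay above, beside 4.23%. At an unadjusted p under 0.05, 1 was higher in non-obese *Nnat*+/-p and 2, *Nnat* included, were lower, beside 1.3% and 1.26% of all genes tested. The higher one was *Peg10*, a retrotransposon-derived gene read from the paternal copy, at 229, 188 and 220 CPM in wild type and 273, 219 and 471 CPM in non-obese *Nnat*+/-p (log2 fold change 0.60, SE 0.27; 0.64 without replicate 15). The other lower one was the zinc finger gene *Plagl1*, at 34.0, 30.1 and 74.0 CPM against 23.8, 23.6 and 27.6 CPM (-0.88, SE 0.41). Replicate 15 held the highest of these values, and without it the *Plagl1* difference was -0.34 (SE 0.42). *Peg3*, *Ndn*, *Gnas* and *Dlk1*, imprinted genes of high level in this tissue, differed by -0.14 to 0.28 on the log2 scale. The median over the tested genes of the list was -0.01, as over all genes tested.

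Across the whole transcriptome, 15618 genes were tested. The call went to 2 of them (0.0128%): *Nnat* and *Nrgn* had lower levels in the non-obese mice. The gene next in order, *Vwc2l*, had an adjusted p of 0.97 (edgeR). At an unadjusted p under 0.05, 203 genes were higher (1.3%) and 197 were lower (1.26%). All 3 non-obese values lay above all 3 wild-type values for 660 genes (4.23%) and below them for 538 (3.44%). Without replicate 15, 17871 genes were tested and 2 were called (0.0112%), *Nnat* and *Plekhh2*, and at an unadjusted p under 0.05, 266 were higher (1.49%) and 169 lower (0.946%).

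Replicate 15 weighed more on the lower genes than on the higher ones. It held the highest wild-type level for 114 of the 197 lower genes (57.9%) and the lowest wild-type level for 60 of the 203 higher genes (29.6%). How often replicate 15 held the highest or lowest wild-type level over all genes tested was not counted. Of the 203 higher genes, 89 also had a p under 0.05 in the same direction without it, and of the 197 lower genes, 73. In the plot of the fold changes with and without it, lower genes moved both ways. *Gda* moved from -1.63 to -0.32 and *Ets2* from -1.59 to -0.72, towards 0. *Thbs3* moved from -2.51 to -2.96 and *Mad2l1* from -2.98 to -3.41, away from 0.

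**Figure D3:**
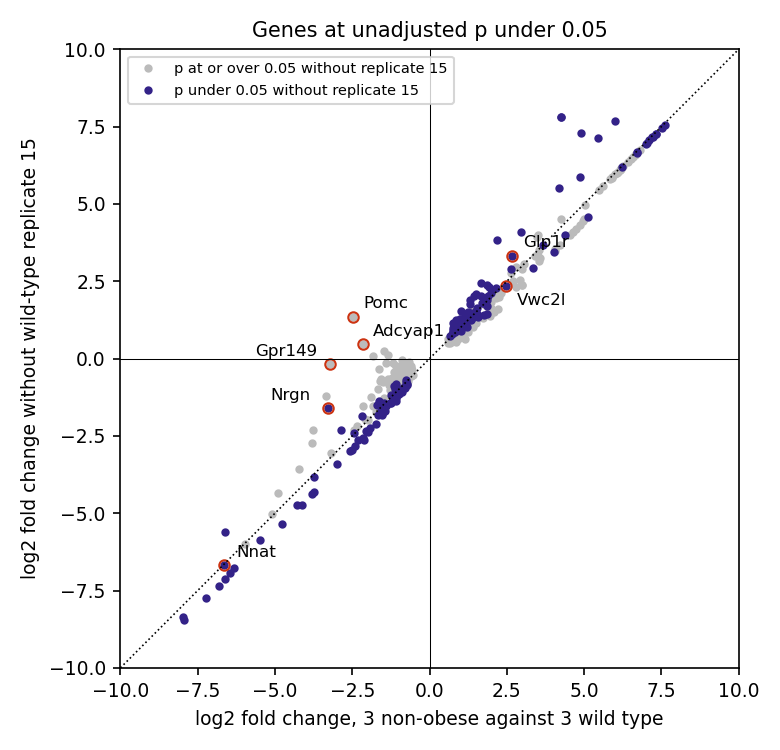
Each point is a gene at an unadjusted p under 0.05 in the comparison of 3 non-obese *Nnat*+/-p with 3 wild-type libraries that was also tested without replicate 15; the x axis is its log2 fold change there and the y axis its log2 fold change without wild-type replicate 15, with the dotted line marking equal values. *Nnat* lies on the line, and *Nrgn* moves from -3.28 to -1.61, *Adcyap1* from -2.16 to 0.46 and *Pomc* from -2.49 to 1.35.

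*Nrgn*, which encodes the calmodulin-binding protein neurogranin of forebrain excitatory neurons, was lower in non-obese *Nnat*+/-p. The gene lies on chromosome 9, 37544492 to 37552904, minus strand. It stood at 17.3, 50.6 and 255 CPM in wild-type replicates 13, 14 and 15, and at 17.0, 9.69 and 6.49 CPM in non-obese replicates 18, 19 and 22. Wild-type replicate 13 and non-obese replicate 18 were thus nearly equal, and replicate 15 held most of the wild-type signal. The log2 fold change was -3.28 (SE 0.63, adjusted p = 0.193, edgeR). Without replicate 15 it was -1.61 (SE 0.56, unadjusted p = 0.00651) and the call was lost. Markers of forebrain excitatory neurons, a list that includes *Nrgn*, summed to 199.8, 562.2 and 708.6 CPM in wild type and 237.8, 338.3 and 167.0 CPM in non-obese *Nnat*+/-p. In replicate 15, 5 of the 10 members were at 0 counts. *Nrgn* was also found in libraries labelled ARC. Without the TMM factor it stood at 65.9 and 150 CPM in chow-fed wild-type ARC replicates 33 and 34. It stood at 0 in ARC replicate 35 and at 226 CPM in replicate 15. The part of either tissue in the *Nrgn* result was not tested. In the forebrain list *Camk2a*, a synaptic kinase, stood at 122, 392 and 427 CPM against 146, 226 and 124 CPM. *Slc17a7*, the cortical glutamate transporter, stood at 6.19, 40.2 and 0 CPM against 2.90, 4.63 and 0.20 CPM.

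The other genes of smallest p among the lower ones did not pass the adjusted threshold, and *Srf*, *Celf2* and *Cdh13* each overlap an antisense transcript. *Srf*, a transcription factor of activity-dependent genes, did not overlap between the groups, where 3.44% of all genes tested lay lower without overlap. It stood at 21.7, 29.6 and 40.9 CPM in wild type and 13.5, 8.85 and 7.31 CPM in non-obese *Nnat*+/-p (log2 fold change -1.63, SE 0.44; -1.36 without replicate 15). *Celf2*, a splicing regulator, stood at 67.0, 74.0 and 110 CPM against 43.9, 43.4 and 31.5 CPM (-1.09, SE 0.30; -0.83 without). *Cdh13*, a cadherin, stood at 131, 79.2 and 168 CPM against 80.6, 35.0 and 53.6 CPM, so that the groups overlapped (-1.15, SE 0.34; -0.88 without). *Grhl1*, a transcription factor of epithelia, stood at 14.2, 4.33 and 22.1 CPM against 1.86, 1.26 and 2.23 CPM (-2.87, SE 0.82; -2.31 without).

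*Ets2*, *Gda* and *Rbfox1* had their highest level by far in replicate 15. *Ets2*, an ETS transcription factor, stood at 157 CPM there and at 32.2 and 58.8 CPM in the other wild-type libraries, against 23.6 to 33.7 CPM in non-obese *Nnat*+/-p. Its log2 fold change went from -1.59 to -0.72 without that library. *Gda*, guanine deaminase, stood at 297 CPM in replicate 15 and at 43.3 and 67.3 CPM in the others, against 29.5 to 58.0 CPM (-1.63, and -0.32 without). The splicing regulator *Rbfox1* stood at 160 CPM in replicate 15 and at 28.4 and 60.6 CPM in the others, against 19.9 to 43.8 CPM (-1.56, and -0.65 without). *Hoxa11os*, a transcript antisense to *Hoxa11*, had no count in any non-obese library and 54, 27 and 11 counts in wild type, which is at least 26.7-fold lower against a floor of 3 counts over the group, and replicate 15 held the fewest of the wild-type counts.

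Among the genes at higher levels, *Vwc2l*, *Glp1r* and *Vgf* did not overlap between the groups, and neither did *Wdr43* or *Ash2l*. The same held for 4.23% of all genes tested, and all of these but *Vgf* were named for a small p in these libraries. None passed the adjusted threshold in the edgeR fit of the 10 libraries. *Vwc2l*, which encodes a secreted von Willebrand factor C domain protein (chromosome 1, 70725715 to 70885397, plus strand), stood at 2.84, 4.54 and 2.58 CPM in wild type and at 11.2, 18.1 and 26.6 CPM in non-obese *Nnat*+/-p. Its log2 fold change was 2.48 (SE 0.56, unadjusted p = 0.000186) and 2.33 (SE 0.66) without replicate 15. DESeq2 called it, with an adjusted p of 0.0609, and no longer did so without replicate 15 (adjusted p = 0.98). The edgeR test called it with all male PVN libraries in the fit (adjusted p = 0.229) and with any gene of a total above 1 count kept (adjusted p = 0.188), and its adjusted p was 0.601 to 1.00 in the other edgeR and limma alternatives.

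*Glp1r* encodes the receptor of glucagon-like peptide 1, an anorexigenic hormone, and lies on chromosome 17, 30901817 to 30940791, plus strand. It stood at 1.55, 0.22 and 2.21 CPM in wild type, which is 6, 1 and 12 counts, and at 9.11, 6.74 and 10.1 CPM in non-obese *Nnat*+/-p, which is 44, 16 and 50 counts. The log2 fold change was 2.68 (SE 0.68, unadjusted p = 0.000557) and 3.33 (SE 0.83) without replicate 15. In the obese *Nnat*+/-p libraries the level was 20.7 ± 5.08 CPM (SD, n = 4), against a non-obese mean of 8.67 CPM. The test of obese against non-obese gave a log2 difference of 1.24 (SE 0.58, unadjusted p = 0.041, adjusted p = 1.00, edgeR).

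*Vgf* encodes a granin-like prohormone that gives rise to peptides acting on energy balance, and lies on chromosome 5, 137026392 to 137033351, plus strand. It stood at 64.5, 110 and 90.2 CPM in wild type and at 138, 148 and 185 CPM in non-obese *Nnat*+/-p. The log2 fold change was 0.83 (SE 0.26, 95% interval 0.28 to 1.37, unadjusted p = 0.00443) and 0.85 (SE 0.31) without replicate 15. In obese *Nnat*+/-p it was 214 ± 30.0 CPM (SD, n = 4). *Wdr43*, a nucleolar protein of ribosome assembly, stood at 23.5, 29.4 and 23.6 CPM in wild type, at 54.1, 49.7 and 50.5 CPM in non-obese *Nnat*+/-p and at 28.3 ± 3.48 CPM (SD, n = 4) in obese *Nnat*+/-p (log2 fold change in non-obese 1.01, and 0.97 without replicate 15). *Ash2l*, a subunit of the MLL histone methyltransferases, stood at 19.3, 34.4 and 28.7 CPM against 65.5, 67.0 and 46.3 CPM (1.11, and 1.15 without).

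Of the remaining genes of smallest p among the higher ones, none was called in the edgeR fit. *Mgat4c*, a glycosyltransferase, stood at 5.41, 3.89 and 14.2 CPM against 25.9, 21.9 and 28.0 CPM (log2 fold change 1.68, and 2.45 without replicate 15). DESeq2 called it without replicate 15 (adjusted p = 0.0888) and not with it (adjusted p = 1.00). *Unc50*, a Golgi membrane protein, stood at 4.64, 1.51 and 5.52 CPM against 19.3, 10.1 and 15.2 CPM (1.93, and 2.30 without). *S100a10*, the partner of annexin A2, stood at 10.3, 4.76 and 2.76 CPM against 31.7, 12.2 and 15.2 CPM (1.75, and 1.42 without). *Lysmd3* stood at 1.95 to 3.35 CPM against 6.84 to 19.3 CPM (1.98, and 2.13 without). *Hcls1*, a gene of blood cells and microglia, stood at 0 to 0.43 CPM against 1.26 to 5.48 CPM (4.01, and 3.44 without). *Gm10190* had no count in wild type and 52, 15 and 0 counts in non-obese *Nnat*+/-p, at least 25.7-fold higher against the floor of 3 counts over the group. *Plekhh2*, called without replicate 15, ranged from 23.6 to 15131 CPM within wild type and from 265 to 2112 CPM in non-obese *Nnat*+/-p, so its direction rests on that library.

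**Figure D4:**
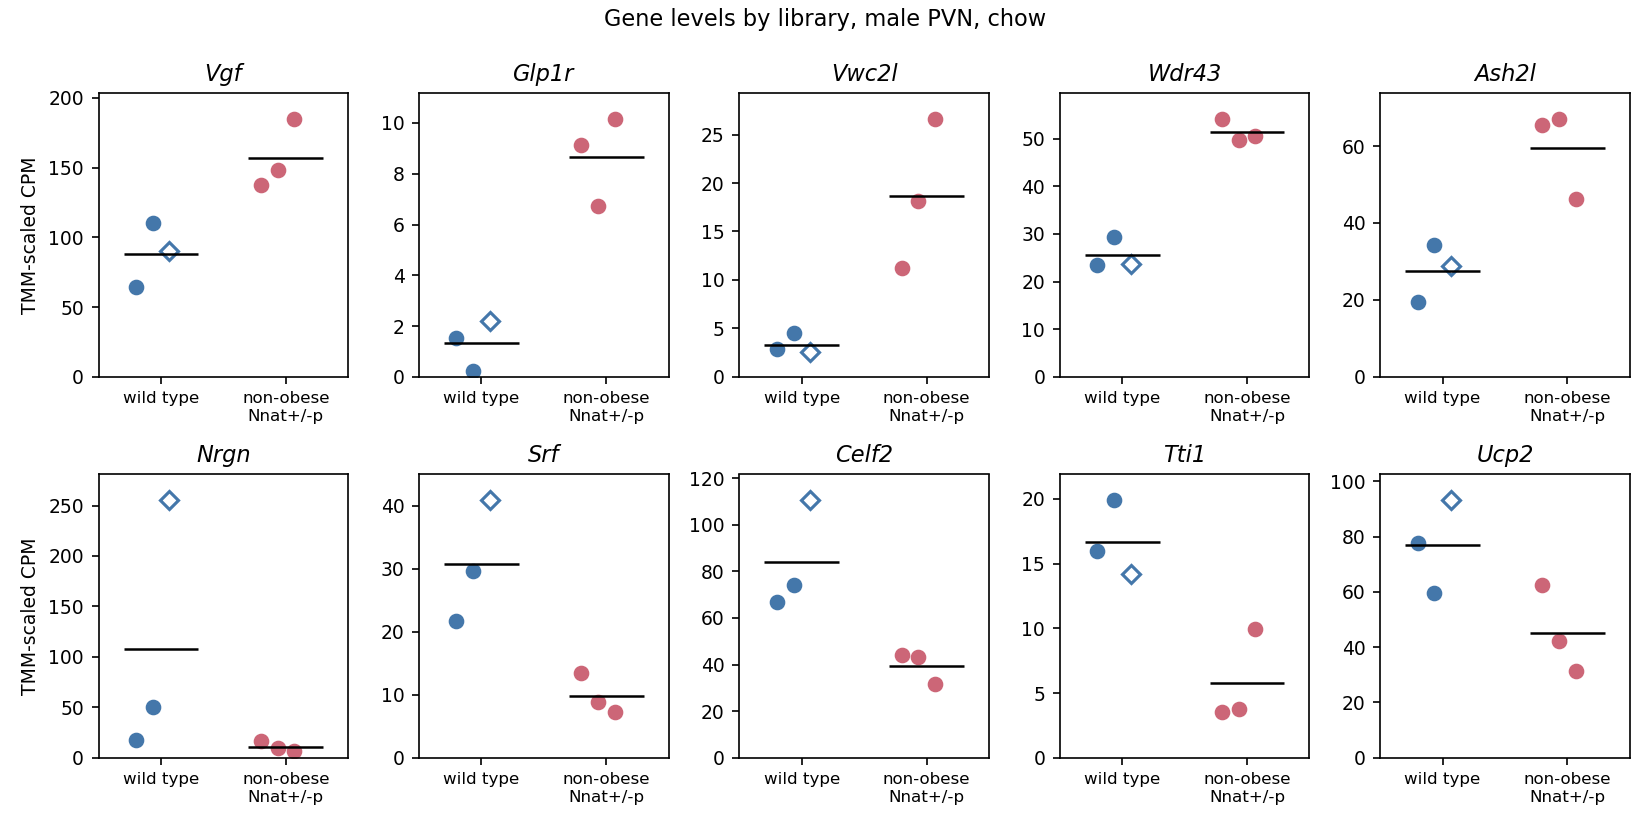
Levels of 10 genes (y axis, TMM-scaled CPM, from 0) in wild-type and non-obese *Nnat*+/-p libraries of the male PVN on chow, 1 point per mouse, with the group mean as a bar; the open diamond is replicate 15. The 5 genes in the upper row are higher in all 3 *Nnat*+/-p mice than in any wild-type mouse, as are 4.23% of all genes tested. *Nrgn*, *Srf* and *Celf2* have their highest value in replicate 15, and *Tti1* does not.

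The ligands of the PVN were next examined. Of 16 tested neuropeptides, none was called, none was higher and 3 were lower at an unadjusted p under 0.05, where all genes tested gave 1.3% and 1.26%. The lower ones were *Adcyap1* (8.25, 8.65 and 139 CPM in wild type, 9.94, 7.58 and 16.8 CPM in non-obese *Nnat*+/-p), *Pomc* and *Pdyn*. *Adcyap1* and *Pomc*, which mark the VMH and the ARC here, were high in replicate 15 alone, and without it their log2 fold changes were 0.46 and 1.35. *Pdyn*, the dynorphin precursor, stood at 71.4, 55.8 and 90.2 CPM against 54.9, 30.3 and 54.4 CPM (-0.63, SE 0.30; -0.43 without).

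With all 6 libraries, log2 fold changes of the 4 PVN hormones ran from -0.21 (*Oxt*) to 0.84 (*Trh*) and none had an unadjusted p under 0.05. Replicate 15 held each of them at 0.18 to 8.84 CPM. Without it, *Avp* stood at 351 and 265 CPM in wild type against 456, 203 and 366 CPM in non-obese *Nnat*+/-p (log2 fold change 0.17, SE 0.32). *Trh* stood at 128 and 127 CPM against 181, 104 and 183 CPM (0.31, SE 0.32), and *Crh* at 68.1 and 81.5 CPM against 87.8, 32.9 and 54.6 CPM (-0.34, SE 0.37). *Oxt* stood at 748 and 655 CPM against 563, 207 and 442 CPM (-0.78, SE 0.36, unadjusted p = 0.0352, adjusted p = 1.00, edgeR). Replicate 19, the lowest for *Oxt*, also had the lowest sum of PVN markers in its group, and its part in the result was not tested. In such bulk samples, fewer cells of a type and less RNA per cell cannot be told apart.

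Of 12 tested genes of prohormone processing and granins, *Vgf* was the single one at an unadjusted p under 0.05. The prohormone convertase *Pcsk1* stood at 82.5, 85.0 and 26.0 CPM against 103, 62.8 and 120 CPM, *Pcsk2* at 140 to 176 CPM against 156 to 170 CPM and carboxypeptidase E (*Cpe*) at 507 to 764 CPM against 449 to 816 CPM. Chromogranin A (*Chga*) stood at 80.7, 117 and 409 CPM against 118, 121 and 125 CPM. The median log2 fold change of the list was -0.14, and 0.07 without replicate 15.

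Among 23 tested receptors of appetite and body weight signals, none was called, *Glp1r* was higher and *Cnr1* was lower at an unadjusted p under 0.05, beside 1.3% and 1.26% of all genes. All 3 non-obese values lay above all 3 wild-type values for 3 of the 23, beside 4.23% of all genes. *Cnr1*, the cannabinoid receptor, stood at 52.9, 75.9 and 153 CPM in wild type against 50.1, 54.3 and 58.0 CPM, with replicate 15 highest (-0.80, and -0.24 without it). The melanocortin receptor *Mc4r* stood at 3.87, 8.44 and 3.13 CPM against 12.0, 10.5 and 9.13 CPM, without overlap (1.03, SE 0.77, unadjusted p = 0.19; 0.78 without replicate 15). *Npy5r*, a neuropeptide Y receptor, did not overlap either, at 0, 1.95 and 2.21 CPM against 3.94, 3.79 and 4.06 CPM (1.46, unadjusted p = 0.241; 1.95 without). The serotonin receptor *Htr2c* stood at 24.8, 33.3 and 13.6 CPM against 38.5, 29.9 and 35.5 CPM. *Ntsr1*, a neurotensin receptor, was below the filter on low counts, with 13.1, 0.43 and 13.6 CPM against 0.83, 1.69 and 0.41 CPM. The leptin receptor *Lepr* stood at 0.26, 1.08 and 11.6 CPM against 3.11, 1.26 and 0.61 CPM.

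The ER lists gave few differences. None of the 17 tested genes of signal peptidase and ER translocation had an unadjusted p under 0.05, and the median was -0.07 (0.05 without replicate 15). The translocon subunits *Sec61a1* (12.6, 19.9 and 22.1 CPM against 24.2, 37.9 and 23.7 CPM) and *Sec61a2* (18.3, 18.6 and 19.3 CPM against 34.4, 19.4 and 27.2 CPM) were higher in all 3 non-obese libraries without passing the test, 2 of 17 beside 4.23% of all genes. The catalytic subunit *Sec11c* stood at 84.6, 56.7 and 50.5 CPM against 63.8, 46.8 and 62.5 CPM, and the accessory subunit *Spcs2* at 52.1, 56.0 and 48.4 CPM against 76.6, 48.0 and 66.2 CPM. Of 14 tested genes of ER calcium handling, *Itpr1* was lower, at 60.8, 125 and 278 CPM against 64.6, 112 and 62.9 CPM, and its log2 fold change went from -0.96 to -0.23 without replicate 15. The calcium pump *Atp2a2* stood at 257, 371 and 324 CPM against 312, 288 and 276 CPM. None of the 18 tested genes of the ER stress response had an unadjusted p under 0.05. The chaperone *Hspa5* stood at 554, 466 and 303 CPM against 537, 272 and 519 CPM, a log2 fold change of 0.01 with a 95% interval from -0.59 to 0.60.

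None of the 16 tested genes of leptin and insulin signalling and none of the 11 glucocorticoid targets had an unadjusted p under 0.05, which 1.3% of all genes passed as higher and 1.26% as lower. Of 8 tested uncoupling and mitochondrial genes 1 was lower, the uncoupling protein gene *Ucp2*, at 77.9, 59.7 and 93.2 CPM against 62.6, 42.1 and 31.3 CPM (-0.76, SE 0.32, unadjusted p = 0.0267; -0.59 without replicate 15). Of 17 immediate early genes 1 was higher, *Fosl2*, at 41.3, 30.9 and 2.58 CPM against 55.7, 56.0 and 54.0 CPM (1.16, and 0.63 without). Of 16 clock genes *Nr1d2* was higher, at 23.5, 37.4 and 29.3 CPM against 45.4, 53.5 and 47.5 CPM (0.69, and 0.68 without). *Tef* was lower, at 51.8, 83.1 and 184 CPM against 59.2, 64.9 and 50.3 CPM (-0.87, and -0.21 without). Without replicate 15 none of these lists had a gene at an unadjusted p under 0.05. DESeq2 called *Nnat*, *Hpn* and *Vwc2l* over all genes, and of these *Nnat* alone is in a list.

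Markers of other cell types were read as counts of genes at an unadjusted p under 0.05, beside 1.3% higher and 1.26% lower over all genes (1.49% and 0.946% without replicate 15). Of 8 VMH markers 4 were lower, with a median log2 fold change of -2.05, and without replicate 15 none was and the median was 0.02. Of 7 tested ARC markers 1 was lower (median -1.58), and without replicate 15 none was lower, 1 was higher (*Prlr*) and the median was 0.32. Of 11 tested PVN markers none passed, and without replicate 15 *Oxt* was lower. Of 8 tested forebrain excitatory markers 2 were lower (*Nrgn* and *Camk2a*; median -0.46), and without replicate 15 2 of 9 were lower (*Nrgn* and *Slc17a7*; median -0.64). Of 10 thalamic markers 1 was higher, *Tcf7l2*, at 125 CPM in replicate 19 and 13.5 and 14.0 CPM in the other non-obese libraries. The tested markers of subpallium (10), lateral hypothalamus and zona incerta (5), suprachiasmatic and anterior hypothalamus (5), astrocytes (10), oligodendrocytes (11), microglia (10), vascular cells (10), ependymal cells and tanycytes (5) and blood (5) held none. The 9 tested genes of glutamate and GABA neurons, 7 of reactive astrocytes and inflammation and 4 of sex also held none with all 6 libraries, and without replicate 15 *Slc17a7* was lower. Astrocyte markers summed to 1751 to 2397 CPM in wild type and 1640 to 2103 CPM in non-obese *Nnat*+/-p.

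The levels of the same genes were then read in libraries outside the comparison, fitted set by set. These were PVN libraries labelled female (4 wild type, 3 non-obese and 3 obese *Nnat*+/-p on chow), male PVN on high-fat diet (HFD; 6 wild type and 3 *Nnat*+/-p) and male ARC on chow (2 wild type, 4 non-obese and 4 obese *Nnat*+/-p). In each, non-obese *Nnat*+/-p, or *Nnat*+/-p on HFD, was set against wild type. Some of these libraries were also low in markers of their labelled nucleus. Without the TMM factor, HFD wild-type PVN replicate 24 held *Avp* at 0.90, *Oxt* at 1.25 and *Glp1r* at 3.58 CPM, the lowest of its group for each. Non-obese ARC replicate 43 held *Pomc* at 2.01, *Nr5a1* at 1.74 and *Agrp* at 0 CPM. Both were kept under their labels, and their part in the values below was not tested. *Nnat* was lower in all, with log2 fold changes of -6.12, -7.05 and -8.26. ARC libraries carry the labelled weights of the males compared here, so they cannot be taken as other animals. Of the 4 non-obese ARC libraries 2 share the weight of 34.3 g, which a single PVN mouse carries, so they may come from 3 mice. Values with those 2 libraries summed to 1 are given where they differ in their side of an unadjusted p of 0.05.

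*Vgf* was higher in *Nnat*+/-p in each set. Its log2 fold change was 0.72 (SE 0.40, unadjusted p = 0.091) in the female-labelled PVN, 0.43 (SE 0.16, unadjusted p = 0.0145) in the PVN on HFD and 0.54 (SE 0.26, unadjusted p = 0.0493) in the ARC, and none was called. With the ARC libraries of equal weight summed, the ARC value was 0.45 (SE 0.24, unadjusted p = 0.0728). In the PVN on HFD *Vgf* ran from 84.3 to 132 CPM in wild type and from 108 to 164 CPM in *Nnat*+/-p, so that the groups overlapped. In the female-labelled PVN the non-obese *Nnat*+/-p values ran from 67.8 to 416 CPM, on both sides of the wild-type range of 140 to 176 CPM. *Vwc2l* gave 1.56 (SE 0.69, unadjusted p = 0.0381) in the female-labelled PVN, 0.30 on HFD and 0.80 in the ARC. *Glp1r* gave 0.54 (SE 0.71), 0.41 (SE 0.34) and 0.88 (SE 1.33). Its wild-type level was 3.68 to 13.9 CPM on HFD and 3.69 to 25.5 CPM in the female-labelled PVN, above the 0.22 to 2.21 CPM of the chow-fed wild-type males. *Nrgn* gave 0.45, 0.87 and -0.09, and *Srf* gave -0.01, 0.26 and -0.18, none with an unadjusted p under 0.05.

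The signs of the genes at an unadjusted p under 0.01 were then counted in those sets. Of those tested in both, *Nnat* left out, 27 of 52 (51.9%) had the same sign in the female-labelled PVN, 21 of 51 (41.2%) on HFD and 30 of 51 (58.8%) in the ARC. Over all genes these shares were 49.5%, 48.7% and 50.5%. For the genes that also had an unadjusted p under 0.01 without replicate 15, they were 8 of 15 (53.3%), 7 of 14 (50%) and 7 of 15 (46.7%).

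**Figure D5:**
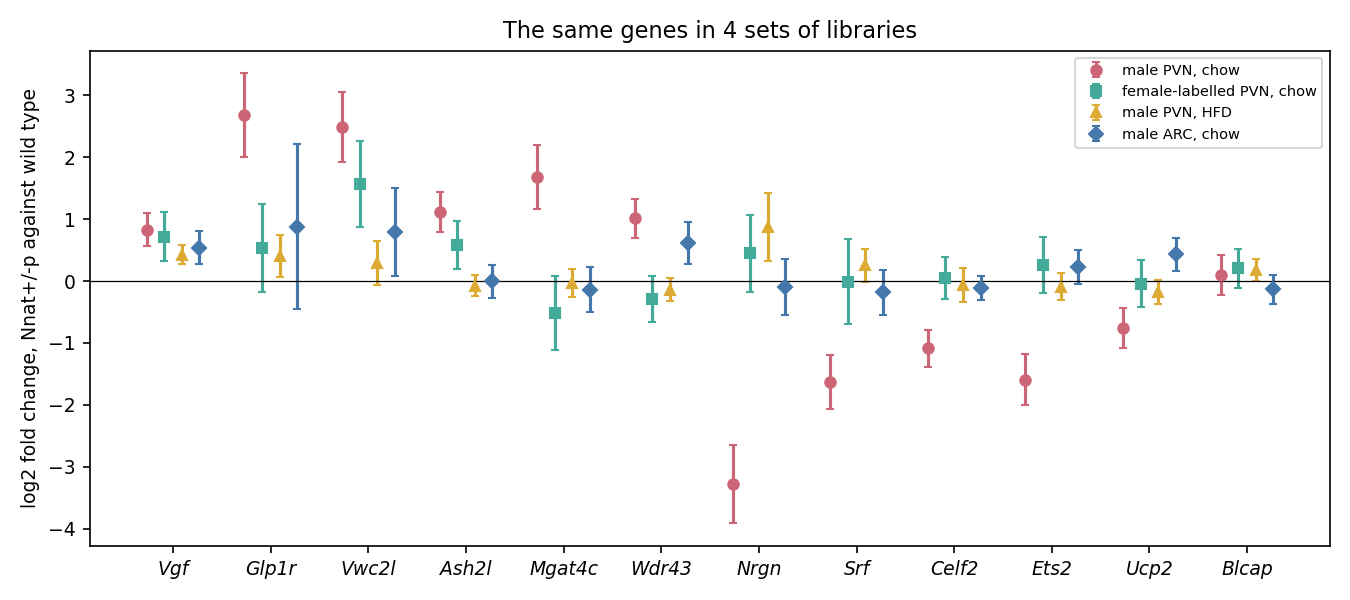
Log2 fold change of *Nnat*+/-p against wild type (y axis) for 12 genes (x axis) in 4 sets of libraries, with the standard error as bars; non-obese *Nnat*+/-p is used in the chow-fed sets. *Vgf* lies above 0 in all 4 sets, from 0.43 to 0.83. *Nrgn*, *Srf* and *Ets2* lie at -3.28, -1.63 and -1.59 in the chow-fed male PVN and between -0.18 and 0.87 in the other sets. Without replicate 15, which is not plotted, their chow-fed male PVN values were -1.61, -1.36 and -0.72.

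Finally, the obese *Nnat*+/-p libraries were set beside the non-obese ones. Both comparisons use the same 3 wild-type libraries, replicate 15 included, and the fit was repeated without it. *Glp1r* differed from wild type by 2.68 in non-obese and 3.92 in obese mice (adjusted p = 0.0406, edgeR), and *Vgf* by 0.83 and 1.28 (adjusted p = 0.143, edgeR), the obese values being called. *Nrgn* differed by -3.28 and -2.84 and was called in both (adjusted p = 0.193 and 0.143, edgeR). Without replicate 15 the obese values were 4.58 for *Glp1r* (adjusted p = 0.0236, edgeR), 1.30 for *Vgf* (adjusted p = 0.252, edgeR) and -1.17 for *Nrgn* (adjusted p = 1.00, edgeR), so that the calls of *Vgf* and *Nrgn* were lost. *Vwc2l* differed by 2.48 and 2.21. *Tti1* differed by -1.51 and -0.05, *Wdr43* by 1.01 and 0.15 and *Grhl1* by -2.87 and -0.36, and without replicate 15 the obese values were -0.14, 0.11 and 0.21. In the test of obese against non-obese none of these genes was called, with unadjusted p of 0.0116 for *Tti1*, 0.00639 for *Wdr43* and 0.00393 for *Grhl1* (0.013, 0.00756 and 0.00598 without replicate 15).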

How the data were processed

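RNA from the laser-captured PVN was made into total RNA libraries and read as single-end reads. The deposited tables hold the authors' counts of reads per gene, as whole numbers without normalization, for 53379 Ensembl genes. The submitters' processing notes name STAR 2.5.0a and GRCm38, and the counting tool, annotation release and strand setting are not given in the sources used here. Groups and replicate numbers were taken from the labels.

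Counts of 10 chow-fed male PVN libraries were fitted by group in R 4.3.3 with edgeR 4.0.16 (filterByExpr, minimum count 10, TMM scaling, quasi-likelihood test). Benjamini-Hochberg adjustment ran over all genes tested, and an adjusted p under 0.25, the threshold of the study, was called. The fit was tested on data simulated from mean gene levels shared by all libraries, apart from changes set in the non-obese group. Such data cannot show how the fit behaves with a library like replicate 15. Intervals are at 95%. Counting error aside, 3 mice a group limit the precision. Fitted fold changes of genes with few counts depend on the prior count of 0.125, and the levels use none. Alternatives used DESeq2 1.42.0, limma 3.58.1, other filters, scalings and samples, and each library left out.

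The comparison, its members and the gene lists were chosen with earlier results of these data known. The rule for naming took *Nnat*, *Blcap*, *Glp1r*, *Vgf*, genes the study names and genes called. It also took the 10 of smallest p in each direction with and without replicate 15. Per list it took up to 4 members of smallest p and those that define it. Not all of these are described. Without replicate 15, *Zfp648* was higher (log2 fold change 2.33, unadjusted p = 0.000142, edgeR) and *Thbs3* lower (-2.96, unadjusted p = 0.000289, edgeR), neither called. With replicate 15 they were at 0.77 (SE 0.60) and -2.51 (SE 0.79). *Zfp648* stood at 3.87, 8.65 and 42.9 CPM in wild type against 31.5, 29.9 and 33.9 CPM, with replicate 15 highest. *Thbs3* stood at 7.74, 88.9 and 9.94 CPM against 2.07, 10.1 and 6.90 CPM, with replicate 14 highest. *AA474408*, *S1pr4*, *Mzt1* and *Spata5*, higher without replicate 15, and *Gm47086*, *Gm13509*, *Ddr2*, *Mad2l1* and *Sorbs3*, lower, were not called either. *S1pr4* had 199 counts in non-obese replicate 19, and 0 and 6 in replicates 18 and 22. *Tbx3* differed by -1.58 (SE 0.91), and by -0.30 without replicate 15. All 395 listed genes matched GENCODE M21. Replicates 5 and 7 (female-labelled PVN) and 35 (ARC) were left out of the fits in other mice for low totals, and replicate 32 was not used, since its label and its table name different nuclei. The *Nnat* coding sequence is not reported here.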

Additional observations from a re-analysis of the deposited data

How the results depend on the processing

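No paired analysis was run. Replicate numbers run from 1 to 53 over the libraries and carry no pairing. The study describes the wild-type and *Nnat*+/-p mice as littermates, but the litter of each mouse was not known here. *Nnat* kept its direction and its call in each alternative, from -6.82 to -6.38 on the log2 scale. The number of genes called, 2, became 1 at an adjusted p under 0.05, with RLE size factors, with only the 6 libraries compared and with limma voom, and 18 when the filter kept any gene with a total above 1 count. Leaving out 1 library at a time gave 1 to 9 calls, 9 without replicate 13 and 1 without replicate 19 or 22. *Nrgn* lost its call without replicate 15, 19 or 22 and in 8 other alternatives, and kept its direction in all, from -3.28 to -1.53 where not called. *Blcap* reversed to -0.0613 with limma voom, -0.0441 with DESeq2 and no replicate 15 and -0.0214 with only the 2 groups and no replicate 15, and ran from -0.46 to 0.43 with 1 library left out. *Npy* reversed to 1.40 with DESeq2 and no replicate 15, and ran from -7.60 to 1.24 with 1 library left out. *Plekhh2* reversed to 3.01 with limma voom, 5.40 with DESeq2 and no replicate 15, 5.41 with only the 2 groups and no replicate 15 and 5.03 without replicates 15 and 19, and ran from -2.42 to 5.41 with 1 library left out. With 1 library left out *4833423E24Rik* ran from -7.49 to 1.23 and *Hpn*, counted in wild type in replicate 13 alone, from -8.51 to 0. The cause of these changes was not tested beyond the libraries named. Of 545 values of single genes under the alternatives, 507 kept their direction and side of the threshold. Leaving out replicates 15 and 19 together, the obese comparison without replicate 15 and the sum of the ARC libraries of equal weight were added after the data were seen. Counts under 20 in most libraries limit *Glp1r*, *Hcls1*, *Gm10190* and *Hoxa11os*.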
